A study of Arabidopsis thaliana with 12 samples.

Results

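TRY (TRIPTYCHON, AT5G53200) and UPB1 (UPBEAT1, AT2G47270) are transcriptional regulators of cell differentiation in the Arabidopsis root. Each was measured by 1 probe set, 248246_at for TRY and 260527_at for UPB1, taken because the platform annotation gives it that single gene symbol. They are 2 of 13356 genes with such a probe set, and both were kept without any filter on signal. On estradiol, which serves to induce MIR165A in the stele, TRY fell below its level on mock plates at all 3 times measured, by 1.40-fold to 1.63-fold. The call on TRY at 10 h held without any 1 of the 12 arrays. With 1 array left out, that at 6 h held in 8 of 12 fits and that at 24 h in 4 of 12. UPB1 rose by 1.73-fold at 10 h, a call that ended without any 1 of 5 of the 12 arrays and with another prior (limma adjusted p = 0.0812), and did not pass the test at 6 h or 24 h.

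The samples were root tips of 0.5 mm from Arabidopsis thaliana seedlings of the Col-0 accession at 4 days post germination. All of them carried pCRE1_XVE::MIR165A, in which the stele-specific CRE1 promoter drives XVE, a transcription factor switched on by ß-estradiol. Tips came from mock plates with ethanol (called 0 h) or from plates with 5 µM ß-estradiol after 6 h, 10 h or 24 h, with 3 biological replicates a group and about 200 tips in each. No seedlings without the transgene were put on estradiol and the only mock group is labelled 0 h, so induction, estradiol and time on the plate cannot be told apart. All material was whole tip tissue, in which fewer cells of a type and less RNA per cell cannot be told apart.

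TRY encodes a small MYB protein with a single DNA-binding repeat and no activation domain. It competes with the larger MYB factors for their bHLH partners and moves between cells, and in the root epidermis it acts with the related CAPRICE protein in favour of the hair cell fate. UPB1 encodes a bHLH factor of the transition zone, where dividing cells begin to elongate. UPB1 represses class III peroxidase genes and so shifts the balance between superoxide and hydrogen peroxide, and roots with more UPB1 activity have a smaller meristem. The microRNA miR165 directs cleavage of class III HD-ZIP mRNAs, among them that of PHV.

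The arrays' medians lay between 5.97 and 6.13 on the log2 scale, and 2 arrays of the same group correlated at r = 0.993 or more. The mean signal of the bacterial hybridisation controls was 10.00 on mock replicate 1, above the 8.99 to 9.48 of the other 11 arrays. With 3 arrays a group, their number limits the precision. In the HD-ZIP III list 1 of 5 genes had a named probe set. PHV, with mock values between 6.99 and 7.16 and 10 h values of 6.43, 6.47 and 6.68, was lower by a log2 difference of -0.52 there (SE 0.10, limma adjusted p = 0.00631). At 6 h it differed by -0.31 (limma adjusted p = 0.28) and at 24 h by -0.41 (limma adjusted p = 0.0884), neither past the threshold of 0.05 on the adjusted p.

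TRY read 5.80, 5.58 and 5.77 on the 3 mock arrays, with values here and throughout in the order of the replicate numbers. After 6 h it read 5.12, 5.06 and 5.29, after 10 h 5.16, 4.95 and 4.93, and after 24 h 5.14, 5.28 and 5.29. All 9 induced arrays lay below all 3 mock arrays, a separation in that direction shown by 1.19% of the 22746 probe sets tested. The mean at 0 h was 5.72 ± 0.12 (SD, n = 3), and those of the 6 h, 10 h and 24 h groups were 5.16 ± 0.12, 5.01 ± 0.13 and 5.24 ± 0.08. From high to low the order was therefore 0 h, 24 h, 6 h and 10 h, and the 3 induced groups overlapped one another.

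TRY fell by 0.57 at 6 h (SE 0.10, 1.48-fold, 95% interval -0.77 to -0.36, limma adjusted p = 0.0191). At that time 0.422% of all probe sets passed in either direction and 0.207% passed in the lower direction. At 10 h TRY fell by 0.71 (SE 0.10, 1.63-fold, 95% interval -0.92 to -0.50, limma adjusted p = 0.000694), where 7.50% passed in either direction and 2.79% as lower. At 24 h TRY fell by 0.48 (SE 0.10, 1.40-fold, 95% interval -0.69 to -0.27, limma adjusted p = 0.0359), where 0.761% passed in either direction and 0.233% as lower. These 3 comparisons share the mock arrays. By size TRY ranked 68th among all differences in the lower direction at 6 h, 48th at 10 h and 145th at 24 h.

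**Figure D1:**
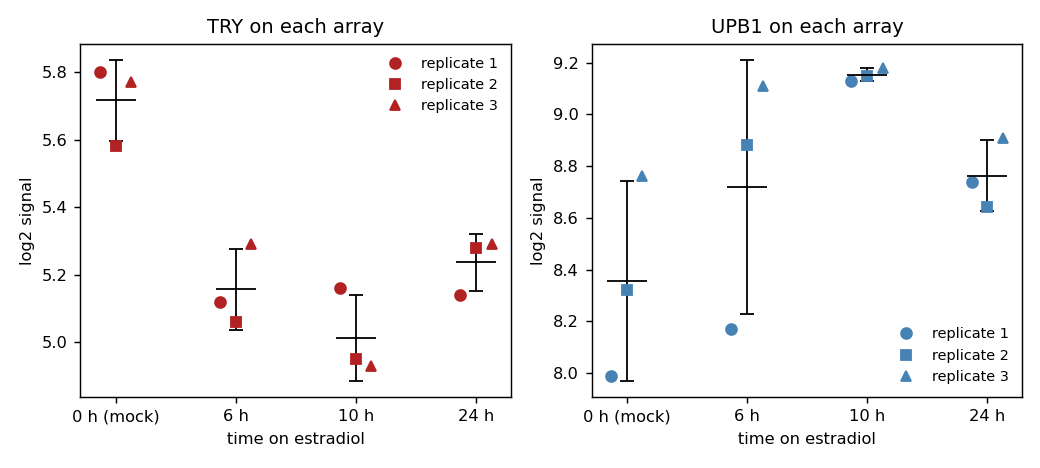
Log2 signal of TRY (left) and UPB1 (right) on each of the 12 arrays by time on estradiol, with marker shapes for the replicate numbers, horizontal bars for group means and error bars for the SD (n = 3). The 9 induced arrays of TRY lie at or below 5.29 and its mock arrays at or above 5.58, while UPB1 is spread from 7.99 to 8.76 on mock arrays and held between 9.13 and 9.18 at 10 h.

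An exact two-sided permutation test of TRY gave p = 0.1 at each time against 0 h, the smallest that 3 arrays against 3 allow. The mean difference of the 3 induced groups from 0 h was -0.59 (SE 0.08), given as a description because the comparison was added after the data were seen. Over all times the F test of limma gave TRY F = 19.9 (limma adjusted p = 0.00289), a test that 5.95% of probe sets passed.

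Among the induced times the level of TRY did not differ past the threshold, where 1.24% of probe sets passed from 6 h to 10 h, 1.79% from 10 h to 24 h and 1.69% from 6 h to 24 h. It read 0.14 lower at 10 h than at 6 h (95% interval of the difference -0.35 to 0.07, limma adjusted p = 0.638). From 10 h to 24 h the difference was 0.22 (95% interval 0.02 to 0.43, limma adjusted p = 0.282), and from 6 h to 24 h it was 0.08 (95% interval -0.13 to 0.29, limma adjusted p = 0.749). A step back of up to 0.43 after 10 h thus lies within the interval.

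The call on TRY at 10 h held without any 1 of the 12 arrays (highest limma adjusted p = 0.00629). The 6 h call ended without mock replicate 1 (-0.52, limma adjusted p = 0.0948), mock replicate 3 (-0.54, limma adjusted p = 0.0547), 6 h replicate 1 (-0.55, limma adjusted p = 0.0689) or 6 h replicate 2 (-0.52, limma adjusted p = 0.119). The 24 h call ended without any 1 mock array, without 24 h replicate 1 or 2, and without 6 h replicate 2, 10 h replicate 2 or 10 h replicate 3, with differences of -0.55 to -0.43 and limma adjusted p = 0.0508 to 0.127.

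TRY had a spread between replicates near that of the other probe sets. Its SD of 0.12 at 0 h was larger than that of 50.2% of probe sets, and at 24 h than that of 30.5%. Its signal lay below the median of each array, with 39.2% to 48.4% of probe sets reading lower. The robust multi-array average used for these values compresses differences of dim probe sets.

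**Figure D2:**
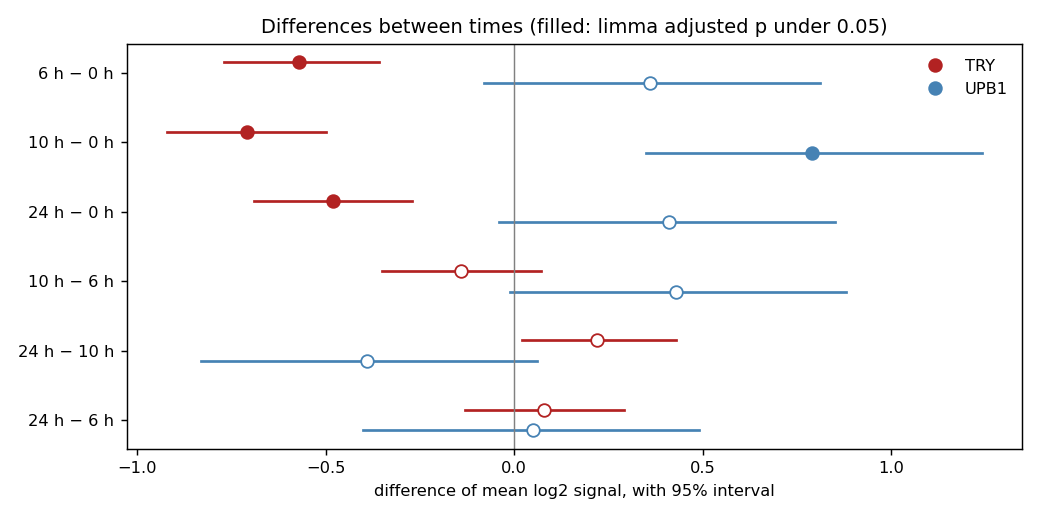
Differences of mean log2 signal between times for TRY and UPB1 (horizontal axis) in 6 contrasts, with limma's 95% intervals as lines and filled points where the limma adjusted p was under 0.05. The intervals of TRY against 0 h lie wholly below 0 at all 3 times, that of UPB1 lies wholly above 0 at 10 h, and no contrast between induced times is filled.

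Of the other genes of epidermal cell fate, 3 of the remaining 18 on the list had a named probe set, and none of the 3 passed at any time, nor at an unadjusted p under 0.05. In either direction 0.422% of all probe sets passed at 6 h, 7.50% at 10 h and 0.761% at 24 h. The shares with an unadjusted p of limma under 0.05 were 9.39%, 20.6% and 10.7%. MYC1 (ATMYC1 in the reference table), a bHLH partner of the MYB factors in the fate complex, differed by -0.06 at 6 h, -0.03 at 10 h and 0.07 at 24 h (lowest limma adjusted p = 0.853). The 95% interval at 10 h was -0.23 to 0.17. GEM, which modulates the expression of the non-hair regulator GLABRA2, differed by -0.13, -0.11 and 0.02 at the 3 times (limma adjusted p = 0.649, 0.451 and 0.958). JKD, a zinc finger factor that acts from the cortex on epidermal patterning, differed by -0.11, 0.01 and -0.19 (limma adjusted p = 0.827, 0.969 and 0.563). The median over the 4 measured genes with TRY was -0.12, -0.07 and -0.08, against 0.00, -0.01 and -0.01 over all probe sets. The closest relatives of TRY, CPC, ETC1, ETC2, ETC3, TCL1 and TCL2, are not analysed here.

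Of the 43 genes listed for root hair differentiation, 3 had a named probe set. At 10 h 2 of the 3 passed, both higher, where 4.70% of all probe sets passed as higher, and the other did not pass at any time. EXPA7 and EXPA18, expansins of root hair cells that loosen the wall, are also the 2 measured genes of the 4 hair epidermis markers. EXPA7 read 4.67, 4.70 and 5.04 on mock arrays and 4.87, 5.19 and 5.16 after 6 h, then 6.62, 6.82 and 7.02 after 10 h and 4.73, 5.29 and 6.17 after 24 h. Its 10 h arrays were thus above every other array, and the 24 h arrays overlapped those of 0 h. Of all probe sets, 12.5% were so separated as higher at 10 h than at 0 h and 10.1% as higher than at 6 h. As lower at 24 h than at 10 h, 11.0% were separated. EXPA7 rose by 2.02 at 10 h (SE 0.26, limma adjusted p = 0.0004) and EXPA18 by 1.26 (SE 0.20, limma adjusted p = 0.00186). At 6 h EXPA7 differed by 0.27 and EXPA18 by -0.05 (limma adjusted p = 0.817 and 0.97). The part of these hair cell markers in the values of TRY and UPB1 was not tested.

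On mock plates UPB1 read 7.99, 8.32 and 8.76, and after 6 h on estradiol 8.17, 8.88 and 9.11. It read 9.13, 9.15 and 9.18 at 10 h and 8.74, 8.64 and 8.91 at 24 h. The 10 h arrays lay above all arrays of the other groups. Against 6 h 10.1% of all probe sets showed such a separation in the higher direction, and 11.0% were so separated as lower at 24 h than at 10 h. Yet the highest 6 h array came within a few hundredths of them. The 6 h and 24 h arrays overlapped those of 0 h. The mean at 0 h was 8.36 ± 0.38 (SD, n = 3), and those of the 6 h, 10 h and 24 h groups were 8.72 ± 0.49, 9.15 ± 0.02 and 8.76 ± 0.14, so the order from high to low was 10 h, 24 h, 6 h and 0 h.

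UPB1 rose by 0.79 at 10 h (SE 0.21, 1.73-fold, 95% interval 0.35 to 1.24, limma adjusted p = 0.0315). In that comparison 4.70% of probe sets passed as higher, and the arrays of 12.5% lay wholly above the mock arrays. The 6 h difference was 0.36 (95% interval -0.08 to 0.81, limma adjusted p = 0.642) and that at 24 h was 0.41 (95% interval -0.04 to 0.85, limma adjusted p = 0.516). Neither passed, and both intervals reach above 0.79. UPB1 ranked 365th by size among all differences in the higher direction at 10 h. The exact two-sided permutation test gave p = 0.4 at 6 h, p = 0.1 at 10 h and p = 0.3 at 24 h, with 0.1 the smallest possible.

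Between the induced times no difference of UPB1 passed. From 6 h to 10 h it was 0.43 (95% interval -0.01 to 0.88, limma adjusted p = 0.438), and from 10 h to 24 h it was -0.39 (95% interval -0.83 to 0.06, limma adjusted p = 0.407). Between 6 h and 24 h it was 0.05 (95% interval -0.40 to 0.49, limma adjusted p = 0.947). The rise of UPB1 at 10 h is therefore not shown to be larger than its differences at 6 h or 24 h. The F test over all times did not pass for UPB1 (F = 4.90, limma adjusted p = 0.131), but did so with the replicate number as a block (F = 8.82, limma adjusted p = 0.0349) and without 6 h replicate 1 (F = 9.82, limma adjusted p = 0.0319). The mean difference of the 3 induced groups from 0 h, likewise a description, was 0.52 (SE 0.17).

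The spread of UPB1 differed widely between groups. Its SD was larger than that of 98.3% of probe sets at 0 h and of 99.5% at 6 h, but larger than that of only 4.83% at 10 h. The model takes a single spread for all groups, so its SE at 10 h rests largely on the mock and 6 h arrays. In both of these groups replicate 1 read lowest and replicate 3 highest. Compared by replicate number, which is a label and not a shown pairing, UPB1 was higher at 6 h by 0.18, 0.55 and 0.35 and at 10 h by 1.14, 0.82 and 0.42.

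The 10 h call on UPB1 ended without mock replicate 1 (0.61, limma adjusted p = 0.134), the array with the lowest UPB1 signal and the highest spike signal. That array also had the lowest median of the 12, 5.97, followed by 5.98 on 24 h replicate 3. Its log2 difference between the 3' and 5' control probe sets of GAPDH was the largest, 0.83, followed by 0.78 on 10 h replicate 2. For actin that difference was 4.88, against a highest of 4.96, and for ubiquitin 1.44, against a highest of 1.53. The call also ended without mock replicate 2 (0.78, limma adjusted p = 0.0868) and without 10 h replicate 1, 2 or 3 (0.80, 0.79 and 0.78, limma adjusted p = 0.0854, 0.0881 and 0.0989). The part of these array measures in the UPB1 value of mock replicate 1 was not tested. Without 6 h replicate 1 the difference was 0.79 as before and the limma adjusted p fell to 0.00712.

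**Figure D3:**
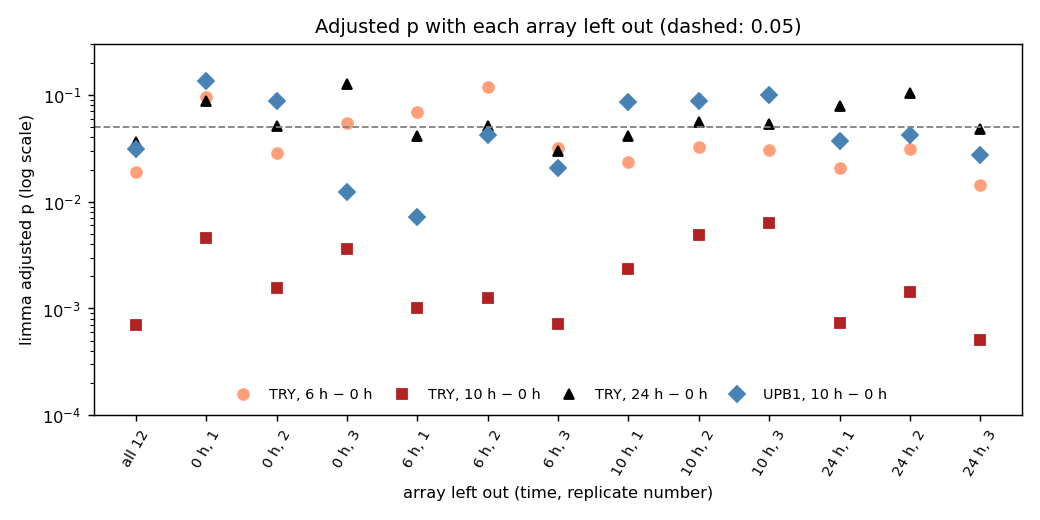
Limma adjusted p (log axis) of the 4 differences from 0 h that passed for TRY and UPB1, with all 12 arrays and with each array left out in turn, named by time and replicate number on the horizontal axis. TRY at 10 h stays below the dashed line at 0.05 throughout with a highest value of 0.00629, while UPB1 at 10 h reaches 0.134 without mock replicate 1.

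Of the 17 genes listed for the UPB1 pathway, 3 had a named probe set, all of them class III peroxidase genes reported to be bound by UPB1 and known here by locus tag. All 3 rose at 10 h, where 4.70% of all probe sets passed as higher. Their median difference was 1.21 at 10 h, against -0.01 over all probe sets. Mock arrays of AT5G17820 read 8.16, 8.42 and 8.76 and its 6 h arrays 7.97, 8.99 and 9.62, while the 10 h arrays read 10.52, 10.31 and 10.65 and the 24 h arrays 8.93, 9.62 and 10.38. The 10 h arrays of AT5G17820 overlapped those of 24 h. They lay above all mock arrays, a separation that 12.5% of all probe sets showed in the higher direction. The rise was 2.05 (SE 0.36, 4.13-fold, limma adjusted p = 0.00353). AT4G16270 rose by 1.21 at 10 h (SE 0.14, 2.32-fold, limma adjusted p = 0.000213) and, alone among the 3, also passed at 24 h (0.96, limma adjusted p = 0.00439), where 0.528% of all probe sets passed as higher. AT4G11290 rose by 0.88 at 10 h (SE 0.16, 1.84-fold, limma adjusted p = 0.00509).

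At 6 h AT4G16270 differed by 0.58 (limma adjusted p = 0.102), AT4G11290 by 0.46 (limma adjusted p = 0.354) and AT5G17820 by 0.42 (limma adjusted p = 0.8), none past the threshold. Without mock replicate 3 AT4G16270 passed at 6 h (0.74, limma adjusted p = 0.02). At 24 h AT5G17820 read 1.20 above 0 h (limma adjusted p = 0.183) and AT4G11290 read 0.66 above (limma adjusted p = 0.0943). The 10 h calls on all 3 held without any 1 of the 12 arrays. UPB1 and these genes thus were higher together at 10 h. At 6 h UPB1 and AT5G17820 were both lowest on replicate 1 and highest on replicate 3, and the same held at 0 h. The order was not shared throughout, since at 24 h UPB1 was lowest on replicate 2 and AT5G17820 on replicate 1, AT4G11290 was highest on replicate 2 at 6 h, and AT4G16270 was lowest on replicate 2 at 0 h. After each group's mean was removed, Pearson's r of UPB1 over the 12 arrays was 0.79 with AT5G17820, 0.77 with AT4G11290 and 0.74 with AT4G16270, given as a description. Of all other probe sets 2.48% had an r of that size or above, and of genes outside the pathway list bHLH115 and GSO1 had r = 0.69 each and MYC1 r = -0.69. The arrays of a group share their treatment, and each value rests on the same RNA as the other, so these are not independent measurements.

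**Figure D4:**
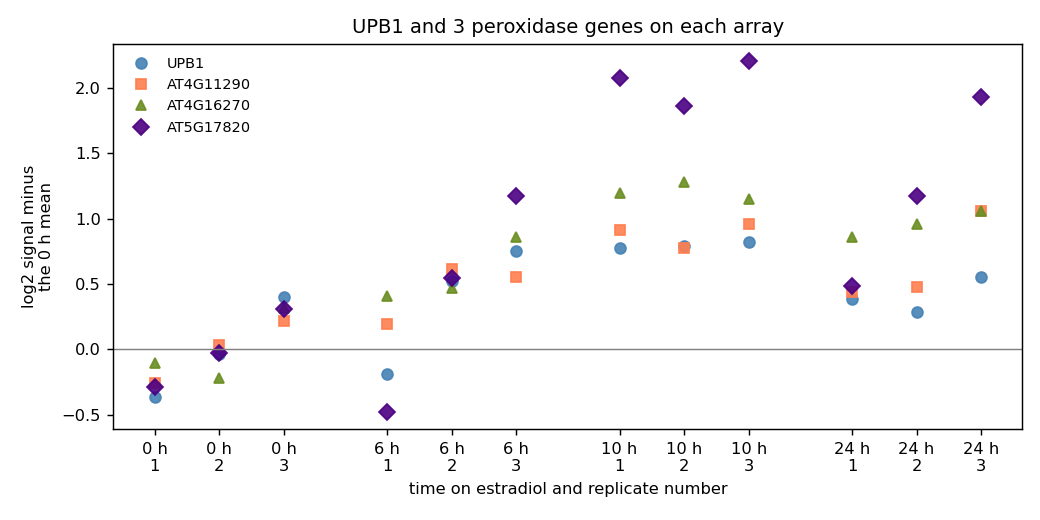
Log2 signal of UPB1 and of the peroxidase genes AT4G11290, AT4G16270 and AT5G17820 on each array, as the difference from that gene's own 0 h mean (vertical axis), by time on estradiol and replicate number. All 4 genes are above their 0 h mean on the 3 arrays at 10 h, and on the 6 h arrays UPB1 and AT5G17820 both run from below that mean on replicate 1 to their highest 6 h value on replicate 3.

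The reference table names 12 further class III peroxidases by number, of which 6 had a named probe set. At 10 h 2 of the 6 passed, both higher, where 4.70% of all probe sets passed as higher. The median difference of the 6 was 0.04. Prx37 (AT4G08770) read 8.88, 8.54 and 8.90 on mock arrays and 9.38, 9.74 and 9.33 at 6 h, a separation that 7.08% of all probe sets showed in the higher direction. It rose by 0.71 at 6 h, where 0.215% of all passed as higher (SE 0.13, limma adjusted p = 0.0218) and by 0.66 at 10 h (SE 0.13, limma adjusted p = 0.00582), and differed by 0.34 at 24 h (limma adjusted p = 0.303). The 6 h call on Prx37 ended without mock replicate 1 (0.76, limma adjusted p = 0.0509), mock replicate 2 (0.60, limma adjusted p = 0.112) or 6 h replicate 2 (0.58, limma adjusted p = 0.117). AT5G66390 (PRX72) rose by 0.90 at 10 h (SE 0.22, limma adjusted p = 0.0241), a call that ended without mock replicate 2 (0.85, limma adjusted p = 0.0797), mock replicate 3 (0.87, limma adjusted p = 0.0646) or 10 h replicate 3 (0.61, limma adjusted p = 0.0931). AT5G66390 was dim, with means of 3.66, 3.48, 4.56 and 3.79 from 0 h to 24 h, all under 5. The other 4, AT2G41480, AT3G50990, PRX52 and AT5G64120, had mean signals between 3.25 and 3.96 at 10 h and differed by -0.11 to 0.10 there.

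**Figure D5:**
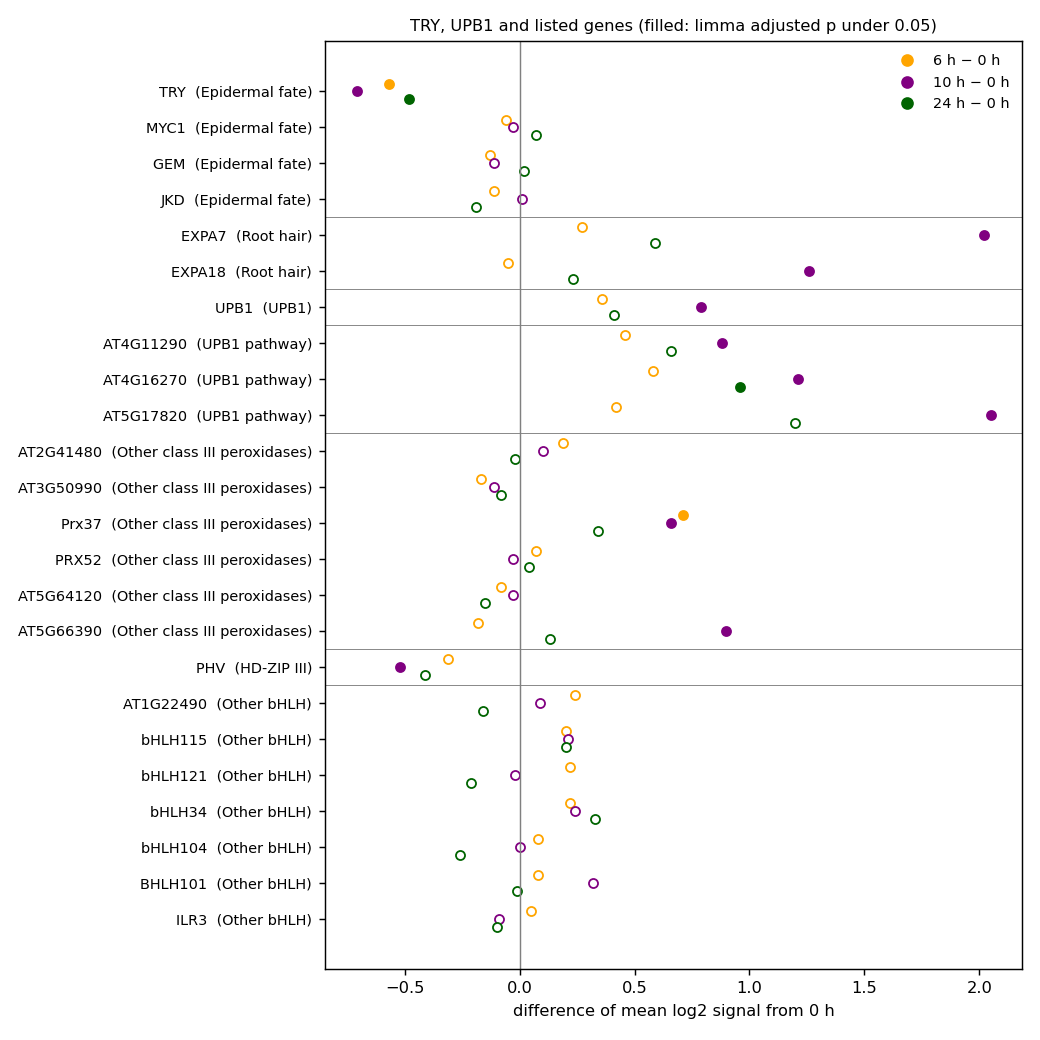
Differences of mean log2 signal from 0 h (horizontal axis) at 6 h, 10 h and 24 h, filled where the limma adjusted p was under 0.05. Drawn are TRY, UPB1 and the named genes of the epidermal fate, root hair, UPB1 pathway, class III peroxidase, HD-ZIP III and bHLH lists. BBM, GSO1 and OPS are not drawn. TRY is the 1 gene of the epidermal fate list with filled points, and the 3 peroxidase genes of the UPB1 pathway list are filled at 10 h with differences of 0.88 to 2.05.

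Of the 22 genes that the reference table names as bHLH, a family added to the lists after the data were seen, 7 had a named probe set and none passed limma's test at any time against 0 h, where 0.422%, 7.50% and 0.761% of all probe sets passed at 6 h, 10 h and 24 h. At an unadjusted p under 0.05 there were 2 at 6 h, 2 at 10 h and 3 at 24 h, against 9.39%, 20.6% and 10.7% of all probe sets. The 7 are bHLH115, bHLH34, bHLH104, bHLH121, BHLH101 and ILR3, which act in iron homeostasis, and AT1G22490. Their differences at 10 h ranged from -0.09 for ILR3 to 0.32 for BHLH101 (limma adjusted p = 0.0685, and 0.0497 without 24 h replicate 3), with a median of 0.09, against 0.79 for UPB1. In the meristem and transition zone list 1 of 24 genes had a named probe set. BBM, an AP2-type factor of the stem cell niche, differed by -0.04, -0.18 and -0.18 at 6 h, 10 h and 24 h (limma adjusted p = 0.953, 0.393 and 0.627).

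Of the markers listed for other tissues, those of the stele, the stem cell zone, the root cap, the non-hair epidermis, the xylem and the shoot are not analysed here by name, so the tissue label was checked on 4 of 34 genes at most. GSO1, an endodermal receptor kinase and the 1 measured of 5 endodermis and cortex markers, rose by 0.75 at 10 h (SE 0.17, limma adjusted p = 0.0147), and that call ended without mock replicate 1 (0.61, limma adjusted p = 0.0707), 10 h replicate 1 (0.68, limma adjusted p = 0.0678) or 10 h replicate 3 (0.67, limma adjusted p = 0.0732). OPS, a phloem protein and the 1 measured of 3 phloem markers, differed by 0.09 at 10 h (limma adjusted p = 0.637). Group means of GSO1 lay between 5.74 and 6.49 and those of OPS between 5.28 and 5.61. The part of such tissue markers in the rise of UPB1 was not tested.

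The genes with a pattern most like that of TRY were found by Pearson's r of log2 signal over the 12 arrays among the other 13512 probe sets with a single gene symbol. They were AT4G23680 and AT5G23830 (r = 0.89 each) and AT1G02110, AT2G48100 and AT5G51770 (r = 0.88 each). Spearman's rank correlation with TRY was 0.64 for AT4G23680 and 0.66 for AT5G51770, and 0.81 to 0.87 for the others. AT4G23680 had means of 3.83, 3.19, 2.99 and 2.97 from 0 h to 24 h, all under the minimum mean signal of 5 used as an alternative. It passed at all 3 times against 0 h, while AT5G23830, AT1G02110 and AT5G51770 passed at 10 h and AT2G48100 at none. Of all probe sets 0.422%, 7.50% and 0.761% passed in either direction at 6 h, 10 h and 24 h. Once group means were removed, r with TRY was 0.58 for AT4G23680, 0.38 for AT5G23830, 0.34 for AT1G02110, 0.52 for AT2G48100 and -0.02 for AT5G51770. The genes, and the opposed ones below, were chosen by r over the same 12 arrays. Neither these values nor the calls on these genes are therefore independent of the choice. The patterns most opposed to TRY were those of TET6, a tetraspanin gene (r = -0.98), AT4G03140 (r = -0.93) and ICL, the isocitrate lyase of the glyoxylate cycle (r = -0.90). TET6 had means of 7.08, 7.44, 7.51 and 7.41, which mirror the 4 means of TRY in order, and rose by 0.43 at 10 h (limma adjusted p = 0.00722). ICL rose by 0.55 at 6 h (limma adjusted p = 0.011) and by 0.68 at 10 h (limma adjusted p = 0.000431), and differed by 0.28 at 24 h (limma adjusted p = 0.209).

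For UPB1 the most alike were AT5G49760 (r = 0.96), AT1G54740 (r = 0.95), and XTH21, SBT4.12 and AT1G62510 (r = 0.94 each). XTH21 encodes a xyloglucan endotransglucosylase of the cell wall, and its means were 6.51, 6.88, 7.31 and 7.08 from 0 h to 24 h. XTH21 rose by 0.80 at 10 h (limma adjusted p = 0.0097). SBT4.12, a subtilisin-like protease gene, differed by 0.35 at 10 h (limma adjusted p = 0.0709). AT5G49760 rose by 1.18 and AT1G62510 by 1.44 at 10 h (limma adjusted p = 0.00568 and 0.02). Once group means were removed, r of these 5 genes with UPB1 lay between 0.90 and 0.95. They were chosen by r over the same 12 arrays, in which UPB1 varied widely within the 0 h and 6 h groups. Neither these values nor the calls on the genes are therefore independent of the choice. The patterns most opposed to UPB1 were those of AT3G03130 (r = -0.95), AT3G02220 (r = -0.93) and AT1G12830 (r = -0.92), which differed by -0.46, -0.25 and -0.39 at 10 h. TRY and UPB1 themselves had r = -0.60 over the 12 arrays and r = 0.19 after group means were removed, values given as a description.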

How the data were processed

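Log2 signals of 12 one-colour Affymetrix ATH1 arrays were used as deposited by the authors. Affymetrix Expression Console, RMA (background correction, alignment of the arrays, summary of each probe set) and limma are named, without versions, per the submitters' processing notes. Per the labels, 250 ng of total RNA went into each labelling.

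The table held 22810 probe sets, of which all but 64 controls, 22746, entered the tests. A single gene symbol stood beside 13513 of them in the platform annotation, several beside 503 and none beside 8730. Symbols were updated through RefSeq's gene table (assembly TAIR10.1), where 13436 were found. No coordinates or sequences are given, and the arrays' values carry no genome build.

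Differences are contrasts of group means in 1 linear model over all arrays (limma 3.58.1, R 4.3.3, empirical Bayes, Benjamini-Hochberg over all tested probe sets, threshold 0.05 on the adjusted p), with 95% intervals from the moderated fit. Single genes were also tested with exact two-sided permutation tests. The method was tested on simulated data. The rule for named genes takes TRY and UPB1, the 5 highest and 3 lowest correlations with each, the 3 peroxidase genes and every measured HD-ZIP III gene, and from each list up to 8 genes that passed, or the 2 with the smallest p where none did. Further genes were named where they complete a small list, and 1 measured gene of the root hair list is not reported here. The members, lists and tests were chosen with earlier results of these data known. The p-values set differences of group means against the spread between these samples. Nothing beyond the replicate label says how replicates were grown, so what that spread covers is not known. Alternatives were 2 rescalings, a minimum mean signal of 5, another prior, array weights and a block for the replicate number. Others were the 2 groups alone, also with that block, and leaving out each array. A fold minimum of 1.5 was applied to counts of calls only.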

Additional observations from a re-analysis of the deposited data

Results flagged for a closer look

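Some genes described beside TRY and UPB1 differed from 0 h by unequal amounts at different times, by limma's test of the difference between the times. From 6 h to 10 h the difference of EXPA7 from 0 h grew by 1.75 (SE 0.26, limma adjusted p = 0.00493) and that of EXPA18 by 1.31 (SE 0.20, limma adjusted p = 0.00573). From 10 h to 24 h they changed by -1.43 (SE 0.26, limma adjusted p = 0.0134) and -1.03 (SE 0.20, limma adjusted p = 0.0205). Of the peroxidase genes, AT5G17820 changed by 1.63 (SE 0.36, limma adjusted p = 0.0427), AT5G66390 by 1.08 (SE 0.22, limma adjusted p = 0.0292) and AT4G16270 by 0.63 (SE 0.14, limma adjusted p = 0.0406) from 6 h to 10 h. Of all probe sets 1.24% passed in either direction from 6 h to 10 h and 1.79% from 10 h to 24 h. These calls between induced times were not checked under the other settings or without single arrays. TRY and UPB1 had no such difference past the threshold.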

How the results depend on the processing

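TRY at 10 h kept its direction and its call under all 8 other settings and without each array (-0.78 to -0.66). These 8 settings include the 2 groups alone with the replicate number as a block. They leave out the fold minimum of 1.5, which was applied to counts of calls only. The differences of TRY lay under that minimum at 6 h (1.48-fold) and 24 h (1.40-fold) and above it at 10 h (1.63-fold). TRY at 6 h lost the call with the 2 groups alone (-0.57, limma adjusted p = 0.0622) and ranged from -0.63 to -0.52 without single arrays. TRY at 24 h lost it with arrays centred on their median (-0.47, limma adjusted p = 0.0737), with an intensity trend and robust prior (-0.48, limma adjusted p = 0.0596), and with the 2 groups alone (-0.48, limma adjusted p = 0.134), also with the replicate number as a block (-0.48, limma adjusted p = 0.173), ranging from -0.55 to -0.43 without single arrays. UPB1 at 10 h lost it with the trend and robust prior (0.79, limma adjusted p = 0.0812) and ranged from 0.61 to 0.99. The small difference of UPB1 between 6 h and 24 h turned to -0.14 with array weights and ranged from -0.23 to 0.24 without single arrays. The cause was not tested.

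The replicate numbers were not taken as a pairing: correlations of deviations from group means ran from -0.104 to 0.279 over 18 same-numbered pairs, with 8 over 0.1 and not every one, and from -0.258 to 0.157 over 36 differently numbered pairs, with 5 over 0.1. With the replicate number as a block in the fit of all groups, F of UPB1 rose to 8.82 (limma adjusted p = 0.0349), and F ranged from 3.27 to 9.82 without single arrays, past the threshold without 6 h replicate 1. The block moved the calls at 6 h from 96 to 160, at 10 h from 1705 to 1870 and at 24 h from 173 to 355. It also brought past the threshold AT4G16270 at 6 h (limma adjusted p = 0.0434) and AT5G17820 and AT4G11290 at 24 h (limma adjusted p = 0.0177 and 0.0197). With array weights OPS and bHLH34 passed at 24 h (limma adjusted p = 0.0462 and 0.0329), and Prx37 lost its 6 h call with the 2 groups alone (limma adjusted p = 0.0799). Counts at 6 h, 10 h and 24 h were 34 to 184, 875 to 2151 and 65 to 225 without single arrays, and 239, 2182 and 520 with array weights. They were 65, 1753 and 53 with the 2 groups alone, and 699 at 10 h with the fold minimum. Between induced times the counts of 283 (6 h to 10 h), 407 (10 h to 24 h) and 384 (6 h to 24 h) rose to 1351, 2068 and 2670 with array weights and were at the lowest 64, 93 and 110 without single arrays. The correlations given for the most alike genes moved by less than 0.1 under each rescaling and each left-out array. The minimum mean signal of 5 cannot change r between genes that it keeps, so it is no check of these values. It removes AT4G23680 and AT1G54740, whose group means all lay under 5. Signal over background limits what can be said of TRY, which is dim.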
